A study of Saccharomyces cerevisiae with 4 samples.

Results

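The genes described here encode the factors that drive the elongation step of cytosolic translation in Saccharomyces cerevisiae. They were chosen by name, as TEF1 (YPR080W), TEF2 (YBR118W), CAM1 (YPL048W), EFT1 (YOR133W), EFT2 (YDR385W), YEF3 (YLR249W), HEF3 (YNL014W), HYP2 (YEL034W) and ANB1 (YJR047C). These are 9 of the 6692 reading frames in the count table, and 8 of the 9 passed the filter on low counts. RNA of nuclear mRNPs, eluted with biotin after affinity purification through Sub2 and then Hpr1, was compared with RNA of the lysate from which such particles are purified, with 2 libraries of each (eluates and lysates). All 4 libraries came from 1 engineered BY4741 strain carrying the alleles sub2-FLAG-3C-ProtA::kanMX4 and hpr1-TS::hphNT1, grown in YPD with no other treatment, so that the lysates carry the tagged baits too and no untagged mock purification was analysed here. The comparison asks which transcripts are over- or underrepresented in the particles relative to the cell as a whole.

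During elongation, eEF1A in its GTP form delivers aminoacyl-tRNAs to the ribosome, and the eEF1B complex recharges eEF1A with GTP. The translocase eEF2 then moves the ribosome along the mRNA by a codon. Fungi need in addition eEF3, an ATPase of the ABC family that acts on the ribosome in each cycle. eIF5A, which carries the unusual amino acid hypusine, helps ribosomes through sequences that are hard to translate, such as runs of proline. Yeast encodes most of these factors in pairs of genes. TEF1 and TEF2 encode the same eEF1A protein, and EFT1 and EFT2 the same eEF2 protein. CAM1 and TEF4 encode the gamma subunit of eEF1B. YEF3 is the main gene of eEF3 and HEF3 a sparsely used paralogue that is induced when zinc is scarce. HYP2 encodes eIF5A in aerated cells, and ANB1 is the form made under hypoxia, repressed by Rox1 when oxygen and heme are present.

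Total counts ranged from 11448755 to 29903666 per library. URA3, LEU2 and MET17, which BY4741 lacks, had 0 counts in each library. Levels are given as CPM (counts scaled to a common library size) over TMM-adjusted totals and, to compare genes, as CPM per kb of countable length, the bases of a reading frame that no other reading frame shares on either strand. Differences between eluate and lysate were tested with edgeR's quasi-likelihood test over 6191 genes with Benjamini-Hochberg adjustment, and a gene was called at an adjusted p under 0.05. SE stands for the standard error of a log2 fold change. All values are shares of a library. A lower share of a transcript cannot be told apart from a higher share of others, nor fewer cells with an mRNA from fewer copies per cell. Whether the numbered libraries of a fraction came from separate cultures is not in the labels. The study calls them biological replicates, and p-values weigh differences against the spread between these libraries. The edgeR test draws that spread in part from other genes, so that its p-values do not rest on a gene's own libraries alone.

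Most elongation factor mRNAs were depleted from the eluate. Of the 8 members tested, 6 were lower (TEF1, TEF2, EFT1, EFT2, YEF3 and ANB1), 1 was higher (HEF3) and 1 did not pass (CAM1). ANB1 passed the filter on low counts through the lysates alone. Among all 6191 genes, 44.8% were called lower and 44.2% higher. The median log2 fold change was -2.23 over the 8 members and -0.01 over all genes. Summed over the 9 genes, of which HYP2 had no counts, the share of all counts was 2.69% in lysate 1 and 2.74% in lysate 2, against 0.529% in eluate 1 and 0.626% in eluate 2. On average the lysates had 4.70 times the share of the eluates (two-sided p = 0.333 in an exact permutation test, where 2 against 2 libraries cannot give a smaller p). The CPM of the fractions did not overlap for 7 of the 8 members, which was also the case for 94.4% of all genes tested.

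The 9 genes lie on 8 chromosomes, and each has a single coding exon. On the sacCer3 coordinates of the count table, TEF1 spans 700594 to 701970 and CAM1 464401 to 465648 of chromosome XVI, and TEF2 spans 477671 to 479047 of chromosome II. EFT1 spans 575098 to 577626 of chromosome XV and EFT2 1243230 to 1245758 of chromosome IV. YEF3 spans 636780 to 639914 of chromosome XII and HEF3 606319 to 609453 of chromosome XIV. HYP2 spans 85676 to 86149 of chromosome V. ANB1, the only member on the minus strand, spans 524908 to 525381 of chromosome X. The reading frames of 7 members overlap no other. The last 321 bases of HEF3 lie under YNL013C of the opposite strand, and all 474 bases of HYP2 lie under YEL034C-A.

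**Figure D1:**
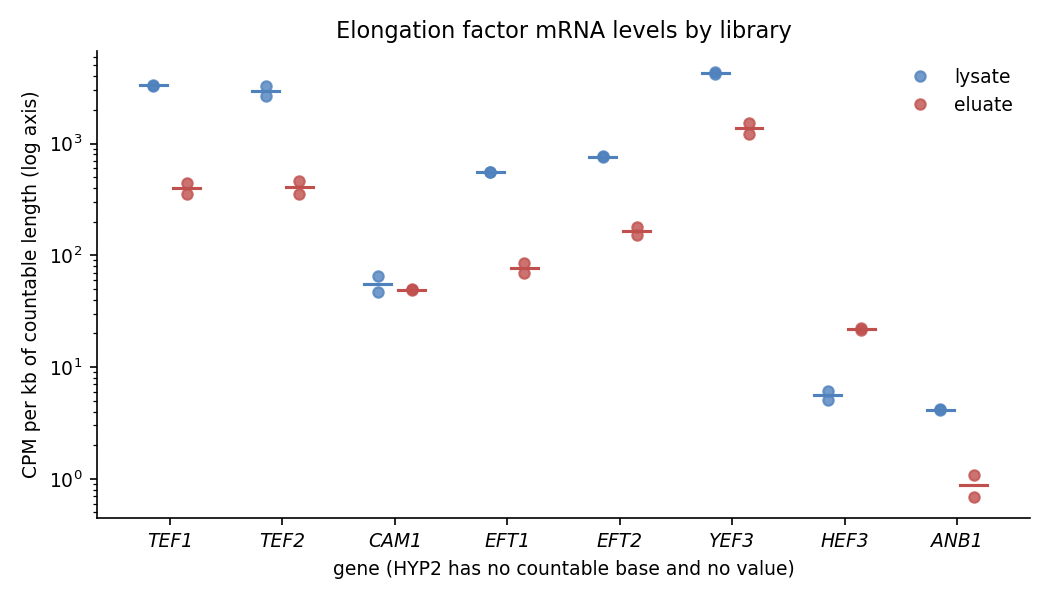
Level of each elongation factor mRNA in CPM per kb of countable length (log axis). Points are single libraries (2 lysates in blue, 2 eluates in red) and bars their means. TEF1, TEF2, EFT1, EFT2, YEF3 and ANB1 sit lower in both eluates than in both lysates, HEF3 sits higher, and the fractions overlap for CAM1. HYP2 has no value because no base of it could be counted.

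The eEF1A genes TEF1 and TEF2 were among the more abundant transcripts of the lysate and strongly depleted from the eluate. TEF1 had 72175 and 55793 counts in lysates 1 and 2, against 10619 and 16804 in the deeper eluates 1 and 2. This corresponded to 4583 ± 63.9 CPM in the lysates and 552 ± 87.0 CPM in the eluates (SD, n = 2 each), which is a log2 fold change of -3.05 (SE 0.153, edgeR adjusted p = 3.78e-11). Both lysates lay far above both eluates. TEF2 had 57722 and 55538 counts in the lysates and 10469 and 17465 in the eluates. It went from 4109 ± 577 CPM to 561 ± 109 CPM (SD, n = 2 each), which is a log2 fold change of -2.87 (SE 0.167, edgeR adjusted p = 2.26e-10). TEF2 differed more between the lysates than TEF1 did, with 3702 CPM in lysate 1 against 4517 CPM in lysate 2.

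The balance of the eEF1A copies did not shift beyond its spread. TEF1 took 55.6% and 50.1% of the counts of the pair in lysates 1 and 2 (95% exact binomial intervals 55.3% to 55.8% and 49.8% to 50.4%). In eluates 1 and 2 it took 50.4% and 49.0% (49.7% to 51.0% and 48.5% to 49.6%). Such intervals hold only the error of counting, as reads lacking molecular identifiers need not be separate molecules. The ranges of the fractions overlapped, and the mean log2 ratio of TEF1 to TEF2 differed by -0.18 between eluate and lysate (exact permutation test, two-sided p = 0.667, adjusted over 4 pairs 0.667). Without lysate 1 the difference was -0.02. The sources used here do not say how reads that match both copies were counted, and the split between copies of 1 protein is therefore uncertain. It does not enter their sum, which had 8693 ± 513 CPM in the lysates and 1113 ± 196 CPM in the eluates (SD, n = 2 each), with a log2 fold change of -2.97 (edgeR adjusted p = 1.29e-10). Reads left uncounted because they match both copies would be missing from the sum too.

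The eEF2 genes were depleted as well, with EFT1 more so than EFT2. EFT1 had 22121 and 17327 counts in the lysates and 3780 and 5921 in the eluates. Its level fell from 1414 ± 6.55 CPM to 195 ± 29.4 CPM (SD, n = 2 each), which is a log2 fold change of -2.85 (SE 0.128, edgeR adjusted p = 1.08e-11). EFT2 had 30478 and 23361 counts in the lysates and 8318 and 12373 in the eluates. Its level fell from 1927 ± 38.5 CPM to 418 ± 47.7 CPM (SD, n = 2 each), which is a log2 fold change of -2.20 (SE 0.125, edgeR adjusted p = 1.69e-10).

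The copies of eEF2 held different shares in the fractions. EFT1 took 42.1% and 42.6% of the counts of the pair in lysates 1 and 2 (95% exact binomial intervals 41.6% to 42.5% and 42.1% to 43.1%). It took 31.2% and 32.4% in eluates 1 and 2 (30.4% to 32.1% and 31.7% to 33.0%). The shares of the fractions did not overlap, and the replicates of a fraction lay close together. The mean log2 ratio of EFT1 to EFT2 differed by -0.65 (eluate minus lysate, a factor of 1.57), with standard deviations of 0.053 among the eluates and 0.022 among the lysates. The exact permutation test gave p = 0.333 (two-sided, adjusted over 4 pairs 0.444), the smallest p possible. Whether the shift of EFT1 against EFT2 differs from that of TEF1 against TEF2 was not tested. The same uncertainty about reads shared by copies applies here. The sum of both eEF2 copies went from 3341 ± 45.0 CPM to 613 ± 77.1 CPM (SD, n = 2 each), with a log2 fold change of -2.45 (edgeR adjusted p = 8.58e-11).

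**Figure D2:**
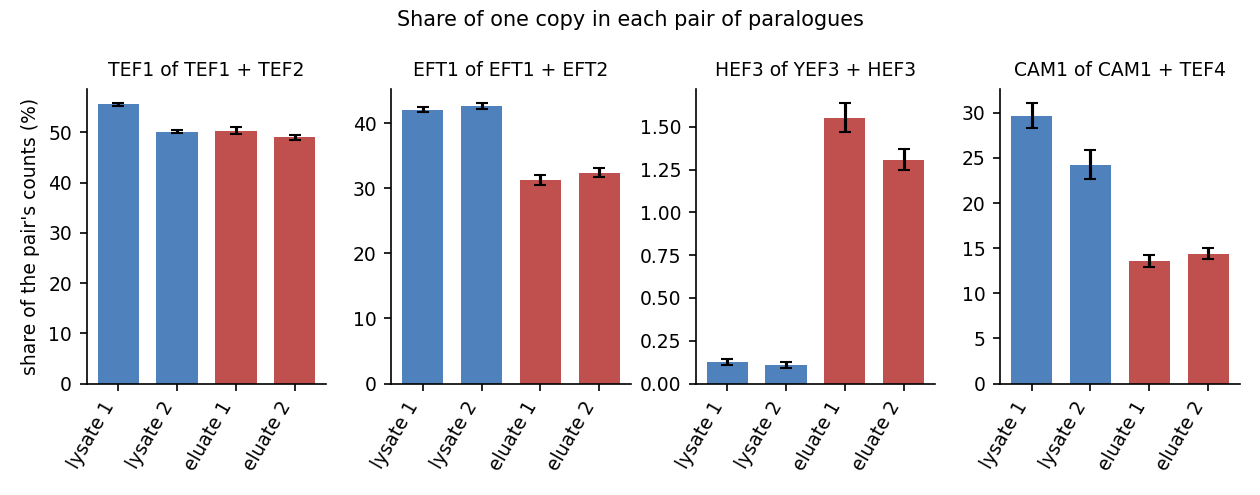
Share of the pair's counts (%) held by 1 copy in each library: TEF1 of TEF1 and TEF2, EFT1 of EFT1 and EFT2, HEF3 of YEF3 and HEF3, and CAM1 of CAM1 and TEF4. Bars are single libraries (lysates in blue, eluates in red), error bars are 95% exact binomial intervals, and each panel has its own axis from 0. EFT1 and CAM1 hold smaller shares and HEF3 larger shares in both eluates than in both lysates, while the fractions overlap for TEF1.

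The eEF3 genes moved in opposite directions. Of the 8 members tested, YEF3 was the most abundant in both fractions by counted reads and the least depleted of the abundant ones. It had 213723 and 161045 counts in lysates 1 and 2 and 82875 and 131221 in eluates 1 and 2, which is 1.44% and 1.41% of all counts in the lysates and 0.369% and 0.439% in the eluates. Its level was 13402 ± 429 CPM in the lysates and 4309 ± 681 CPM in the eluates (SD, n = 2 each), which is a log2 fold change of -1.64 (SE 0.179, edgeR adjusted p = 4.39e-07). The eluates thus differed from each other by more than the lysates did, yet both lay well below them. In CPM per kb, YEF3 ranked 27 in the lysates and 5 in the eluates among 6188 genes.

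HEF3 was the only one of the 8 members tested with a higher level in the eluate. It had 268 and 174 counts in lysates 1 and 2 and 1308 and 1737 in eluates 1 and 2. This is 15.7 ± 2.15 CPM in the lysates and 61.9 ± 2.12 CPM in the eluates (SD, n = 2 each), a 3.93-fold higher level and a log2 fold change of 1.97 (SE 0.117, edgeR adjusted p = 2.96e-10). Both eluates lay above both lysates. YNL013C, the reading frame opposite the end of HEF3, had at most 3 counts in any library, so that few reads were assigned to it in the 57 bases that it holds alone.

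HEF3 nonetheless remained a small part of the eEF3 transcripts. It made up 0.125% and 0.108% of the counts of the pair in lysates 1 and 2 (95% exact binomial intervals 0.111% to 0.141% and 0.0925% to 0.125%). In eluates 1 and 2 it made up 1.55% and 1.31% (1.471% to 1.640% and 1.246% to 1.369%). Per kb of countable length, YEF3 was 716 and 831 times as abundant as HEF3 in the lysates and 56.9 and 67.8 times in the eluates. The log2 ratio of YEF3 to HEF3 differed by -3.63 (eluate minus lysate), a factor of 12.4 (exact permutation test, two-sided p = 0.333, adjusted over 4 pairs 0.444). The difference lies far outside the standard deviations of 0.179 among the eluates and 0.152 among the lysates.

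The eIF5A genes could not be compared with each other, because HYP2 had 0 counts in all 4 libraries. In the coordinates of the count table, HYP2 lies wholly within YEL034C-A, a reading frame of 603 bases on the opposite strand that extends 63 bases before the start of HYP2 and 66 bases past its end. There are 97 reading frames whose every base lies under one of the opposite strand and under none of the same strand, and 96 of them had 0 counts in all libraries. Of 5376 reading frames that share no base with another, 34 did. The 0 of HYP2 is thus no measure of the level of its mRNA, and neither a floor nor a fold change is given. YEL034C-A itself had 1673 and 1586 counts in lysates 1 and 2 and 723 and 946 in eluates 1 and 2, in the 92 bases that are its own, and had a log2 fold change of -1.80 (SE 0.105, edgeR adjusted p = 2.43e-10). Those bases flank HYP2, and from which strand these reads came cannot be told apart with this table.

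ANB1, the hypoxic form, was scarce in both fractions. It had 31 and 24 counts in lysates 1 and 2 and 11 and 9 in eluates 1 and 2. Its level was 1.97 ± 0.0254 CPM in the lysates and 0.418 ± 0.127 CPM in the eluates (SD, n = 2 each), which is a log2 fold change of -2.25 (SE 0.356, edgeR adjusted p = 2.57e-05). The standard error is the largest among the members, and the counts behind it are few. ANB1 passed the filter on low counts only through the lysates, the fraction where it is higher. Its call is therefore no independent support for a depletion. ANB1 and HEF3 are the minor forms of their pairs and had like levels in the lysates, 4.16 ± 0.0535 and 5.57 ± 0.762 CPM per kb (SD, n = 2 each). In the eluates ANB1 had 0.883 ± 0.268 and HEF3 22.0 ± 0.753 CPM per kb (SD, n = 2 each), so that these minor forms went opposite ways. They differ in coding length, with 474 bases for ANB1 and 3135 for HEF3.

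CAM1, of the gamma subunit of eEF1B, did not pass the test. It had 1261 and 718 counts in lysates 1 and 2 and 1356 and 1663 in eluates 1 and 2, which is 80.9 and 58.4 CPM in the lysates and 62.6 and 60.7 CPM in the eluates. The eluates fell between the lysates. Its log2 fold change was -0.18 (SE 0.125, edgeR adjusted p = 0.184). It depended on the lysate used: without lysate 1 it was 0.075 (edgeR adjusted p = 0.524), and without lysate 2 it was -0.40 (adjusted p = 1.94e-04). With library sizes alone it was -0.36 and passed (edgeR adjusted p = 0.0324).

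Among the members with a level, which leaves out HYP2, the order was largely kept between the fractions. In the lysates it ran from YEF3 (4275 ± 137 CPM per kb) over TEF1 (3328 ± 46.4), TEF2 (2984 ± 419), EFT2 (762 ± 15.2), EFT1 (559 ± 2.59), CAM1 (55.8 ± 12.7) and HEF3 down to ANB1 (SD, n = 2 each). TEF1 and TEF2 differed by less than the spread of TEF2. In the eluates the order was YEF3 (1375 ± 217 CPM per kb), TEF2 (407 ± 79.1), TEF1 (401 ± 63.2), EFT2 (165 ± 18.9), EFT1 (77.3 ± 11.6), CAM1 (49.4 ± 1.09), HEF3 and ANB1 (SD, n = 2 each). Only TEF2 and TEF1 overlapped there. The distances changed more than the order did. YEF3 had 0.723 and 0.635 times the summed level of TEF1 and TEF2 in lysates 1 and 2, and 1.73 and 1.68 times in eluates 1 and 2 (exact permutation test, two-sided p = 0.333). This ratio was chosen after the values were seen. Reads left uncounted because they match both copies would be missing from TEF1 and TEF2, and likewise from EFT1 and EFT2. The order and this ratio therefore hold for counted reads alone.

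Coding length and abundance differ among the members and go with enrichment across the genome. The median log2 fold change of nuclear protein-coding genes was -0.30 for lengths from 1011 to 1461 bases, which takes in TEF1, TEF2 and CAM1, and 1.56 from 2121 bases up, which takes in EFT1, EFT2, YEF3 and HEF3. It was -1.86 up to 615 bases, the class of ANB1. Of the 1153 genes in the longest class, 1 had a lower log2 fold change than EFT1, 5 a lower one than EFT2 and 17 a lower one than YEF3, while 722 lay below HEF3. Of the 1164 genes in the class of TEF1 and TEF2, 46 lay below TEF1, 59 below TEF2 and 632 below CAM1. ANB1 lay near the middle of its length class, with 519 of 1161 genes below it.

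With genes classed by level in the lysate, the abundant members lay within the range of their class and ANB1 near the lower end of its own. The highest class held 1155 nuclear protein-coding genes with 126 to 26800 CPM per kb in the lysates, a wide range of levels. Their median log2 fold change was -2.19, with 991 called lower and 106 higher. In this class 384 genes lay below TEF1, 425 below TEF2, 432 below EFT1, 572 below EFT2 and 693 below YEF3. The 1155 genes with 16.2 CPM per kb or less had a median of 1.37. HEF3 had 727 of them below it and ANB1 had 16. The class holds only genes that passed the filter on low counts, which leaves out genes scarce in both fractions. The place of ANB1 in it therefore depends on that filter. CAM1 had 470 of the 1154 genes of its class below it. Level in the lysate is itself a term of the fold change, and the part of length and abundance in these results was not tested.

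**Figure D3:**
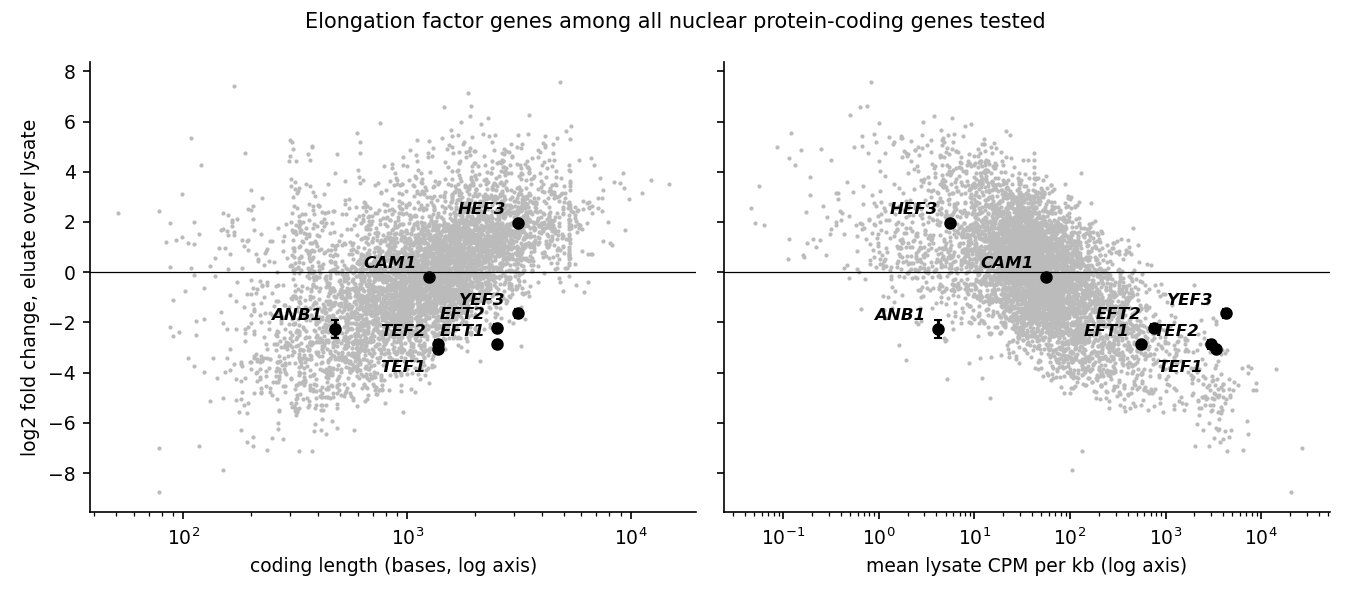
Log2 fold change of eluate over lysate for all nuclear protein-coding genes tested (grey) against coding length in bases (left, log axis) and mean lysate CPM per kb (right, log axis). Black points are the 8 elongation factor genes tested, with standard errors. EFT1, EFT2 and YEF3 lie at the lower edge of genes of their length and within the range of genes of their abundance, and ANB1 lies low among scarce genes but near the middle of genes of its length.

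The genes with levels most like those of the members, by Euclidean distance of log2(CPM per kb + 1) over the 4 libraries, were for TEF1 the ribosomal protein genes RPS9B (distance 0.181) and RPL3 (0.271). For EFT2 they were SES1, which encodes the cytosolic seryl-tRNA synthetase (0.275), and YHB1, a flavohemoglobin gene (0.321). YEF3 had no close neighbour. The nearest were PMA1, of the plasma membrane proton pump, at 1.03 and the ribosomal protein gene RPL5 at 1.09. Nearest to HEF3 were PXA1, of a peroxisomal fatty acid transporter (0.201), and the sulfate permease gene SUL1 (0.230). CAM1 was nearest to the potassium channel gene TOK1 (0.210) and the peroxisome gene PEX25 (0.223), and ANB1 to SPG4 (0.338) and YDR278C (0.376). These are descriptions over 4 libraries and 5990 genes.

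The other cytosolic elongation factor genes moved in both directions, with 1 of 3 lower and 2 higher, against 44.8% and 44.2% of all genes. EFB1, of the alpha subunit of eEF1B that exchanges the nucleotide of eEF1A, had 2369 ± 28.7 CPM in the lysates and 143 ± 5.89 CPM in the eluates (SD, n = 2 each). It fell by 4.05 on the log2 scale (SE 0.129, edgeR adjusted p = 2.71e-13), more than any tested member did. TEF4, the paralogue of CAM1, rose from 187 ± 6.46 to 381 ± 27.5 CPM (SD, n = 2 each), which is a log2 fold change of 1.03 (edgeR adjusted p = 1.09e-07). NEW1, an ABC protein related to eEF3, rose by 1.10 on the log2 scale (edgeR adjusted p = 4.00e-07). Among the subunits of eEF1B, alpha was thus depleted and 1 gene of gamma enriched. EFB1 and TEF4 have 2 coding exons each and CAM1 has 1, and the part of this was not tested. CAM1 made up 29.7% and 24.3% of the CAM1 and TEF4 counts in lysates 1 and 2 (95% exact binomial intervals 28.3% to 31.1% and 22.7% to 25.8%). It made up 13.5% and 14.4% in eluates 1 and 2 (12.87% to 14.22% and 13.75% to 15.04%), a difference of the log2 ratio of -1.18 (exact permutation test, two-sided p = 0.333, adjusted over 4 pairs 0.444).

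Of 5 genes of termination, recycling and rescue, 4 were lower and 1 higher, against 44.8% and 44.2% of all genes. The release factor genes went opposite ways. SUP45, of eRF1, which recognises stop codons, fell by 2.53 on the log2 scale (edgeR adjusted p = 3.82e-12), from 579 ± 12.8 to 100.3 ± 5.22 CPM (SD, n = 2 each). SUP35, of the GTPase eRF3, rose by 1.26 (adjusted p = 9.23e-08), from 835 ± 69.2 to 2007 ± 20.7 CPM (SD, n = 2 each). RLI1, of the ABC protein that splits ribosomes, fell by 1.58, and DOM34 and HBS1, of the rescue factors for stalled ribosomes, fell by 1.01 and 1.08.

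Of 17 genes for modification and folding of elongation factors, 12 were lower, 3 higher and 2 did not pass. Their median log2 fold change was -0.80, against -0.01 over all genes, of which 44.8% were lower and 44.2% higher. DYS1, of the deoxyhypusine synthase that acts on eIF5A, was the lowest and also the most abundant of the 17 in the lysates. It had 421 ± 12.3 CPM in the lysates and 32.4 ± 2.31 CPM in the eluates (SD, n = 2 each) and fell by 3.70 on the log2 scale (edgeR adjusted p = 1.16e-13). NNT1, whose product methylates eEF1A, fell by 2.78. At the other end were EFM3, of an eEF2 methyltransferase, with a log2 fold change of 1.97 (edgeR adjusted p = 7.31e-11), and RRT2, of diphthamide synthesis on eEF2, with 0.55 (adjusted p = 0.00446). The call of RRT2 was lost under 3 of 12 alternatives that leave the copies unsummed, with adjusted p from 3.14e-05 to 0.0813 over them.

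Of 4 genes of mitochondrial elongation factors, 2 were lower and 2 higher, against 44.8% and 44.2% of all genes. TUF1, of the mitochondrial EF-Tu, fell by 2.43 and MEF1, of a mitochondrial EF-G, by 0.33 on the log2 scale (edgeR adjusted p = 7.85e-12 and 0.00422). The call of MEF1 was lost without eluate 1 (adjusted p = 0.0689, and from 8.44e-05 to 0.0689 over 12 alternatives). MEF2, of the other EF-G-like factor, rose by 1.53 and GUF1, of a LepA-like GTPase, by 1.54. Both eEF2-like GTPase genes of the cytosol and nucleus were higher, against 44.2% of all genes. In their length class, from 2121 bases up, 960 of 1153 genes were called higher, and the median log2 fold change was 1.56. RIA1, of the GTPase that matures the large ribosomal subunit, rose from 249.8 ± 21.6 to 964 ± 13.6 CPM (SD, n = 2 each), by 1.95 on the log2 scale, and SNU114, of the spliceosomal GTPase, by 0.35. SNU114 no longer passed when scaled by library sizes alone (adjusted p = 0.0867, and from 7.49e-04 to 0.0867 over 12 alternatives).

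**Figure D4:**
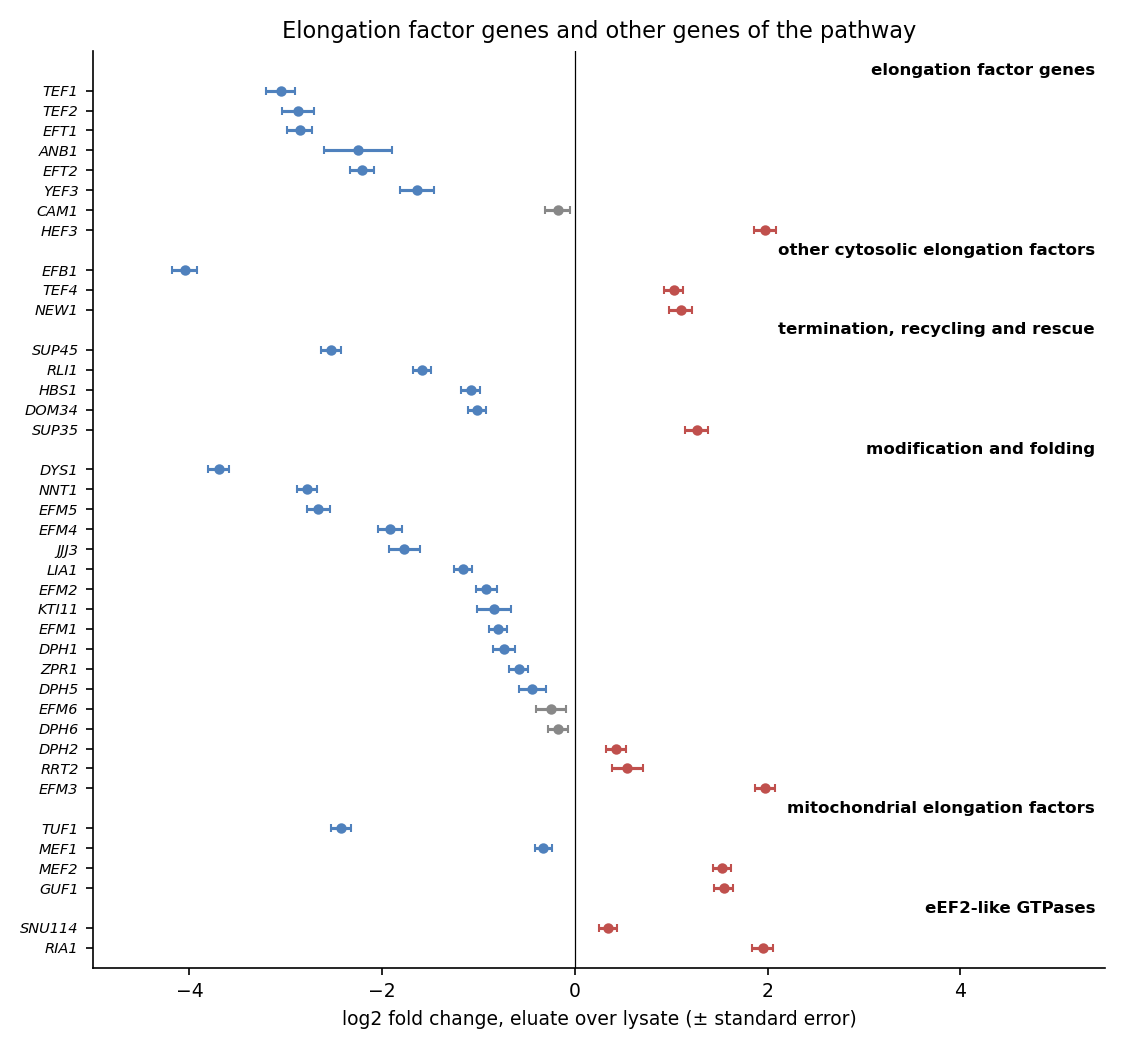
Log2 fold change of eluate over lysate with its standard error for the 8 elongation factor genes tested and for 5 lists of other genes of the pathway, without the oxygen and zinc genes. Blue marks genes called lower, red genes called higher and grey genes that did not pass (adjusted p under 0.05, edgeR). EFB1 lies below the members, and of the 5 lists drawn, each but the eEF2-like GTPases holds genes on both sides of 0.

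ANB1 was also set beside the other aerobic and hypoxic isoform genes. Of 8 such genes, 4 were lower, 3 higher and 1 did not pass, against 44.8% lower and 44.2% higher among all genes. COX5A, the aerobic form of cytochrome c oxidase subunit V, had 207 CPM per kb in the lysates and a log2 fold change of -2.57. COX5B, its hypoxic form, had 90.2 CPM per kb and -2.13. CYC1, of the main cytochrome c, had a log2 fold change of -2.52, while its hypoxic counterpart CYC7 had 0.35 and did not pass (edgeR adjusted p = 0.0860). HMG1, an aerobic HMG-CoA reductase gene, had a log2 fold change of 1.47 and PET9, of the main ADP/ATP carrier, of 0.41. The call of PET9 was lost under 2 of 12 alternatives (edgeR adjusted p from 6.84e-09 to 0.162 over them), and COX5B, CYC7, AAC3 and HMG2 were named after their values were seen. The hypoxic forms AAC3 and HMG2 had log2 fold changes of -0.47 and 0.39 and were called lower and higher, but these calls were lost under 3 of 11 and 2 of 12 alternatives (edgeR adjusted p up to 0.289 and 0.0891). ANB1 had 4.16 CPM per kb in the lysates, below COX5B and also below AAC3 (8.95), CYC7 (13.4) and HMG2 (46.7). Of 6 regulator genes for oxygen and zinc, 6 were higher in the eluate, against 44.2% of all genes. This list, too, was chosen with earlier results of these data known. Among the genes tested with 16.2 CPM per kb or less in the lysates, the class of ROX1, ZAP1, MOT3, TUP1 and CYC8, 823 of 1155 were called higher. In the class of HAP1, from 33.5 to 59.1 CPM per kb, 558 of 1154 were. ROX1, the repressor of ANB1, went from 5.09 ± 1.21 to 194 ± 22.7 CPM (SD, n = 2 each), which is a log2 fold change of 5.27. HAP1 and MOT3 had 4.48 and 4.40, TUP1 and CYC8 of the corepressor that Rox1 recruits 5.90 and 5.10, and ZAP1, the zinc-responsive activator of HEF3, 3.14. CYC8 shares 205 bases with a reading frame of the opposite strand.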

How the data were processed

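RNA was measured by strand-specific, rRNA-depleted RNA sequencing. The authors deposited counts of reads per reading frame. For these the submitters' processing notes name STAR 2.7.9a, featureCounts (Subread 2.0.3) and sacCer3, and the sources used here give no setting for strand or for reads that match several places. The lengths in that table (unit: other) are bases per reading frame as deposited. A deposited DESeq2 comparison of the fractions holds the authors' log2 fold changes and p-values and was not used. Symbols were taken from RefSeq (assembly R64) for 6008 of 6692 identifiers, and no sequences were at hand.

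The test was edgeR's quasi-likelihood F test (edgeR 4.0.16, R 4.3.3) after filterByExpr and TMM, in a model of fraction alone. Standard errors (SE) were obtained as the size of the log2 fold change divided by the root of F. Ratios of paralogues were compared by exact permutation, over 4 pairs. The procedure was tested on simulated data with known changes in a small part of the genes. There edgeR called 46 of 50 genes changed 2-fold and 13 of 50 changed 1.25-fold. How TMM behaves when most genes are called, as in these data, was not tested. The pair of HYP2 and ANB1 could not be compared.

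The members and lists were chosen with earlier results of these data known. Named are all members, every gene of lists of up to 6, and of longer lists the 2 highest, the 2 lowest and the most abundant in the lysate, besides the nearest genes by level. Alternatives were RLE factors, library sizes alone, nuclear genes alone, filters, DESeq2 1.42.0, limma-voom (limma 3.58.1), a replicate block, leaving out each library, and summed copies.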

Additional observations from a re-analysis of the deposited data

How the results depend on the processing

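The calls of TEF1, TEF2, EFT1, EFT2, YEF3, HEF3 and ANB1 kept their direction and passed under every alternative that tested them. Their log2 fold changes ranged from -3.24 to -2.87 for TEF1, from -3.11 to -2.66 for TEF2, from -3.04 to -2.68 for EFT1, from -2.39 to -2.06 for EFT2, from -1.82 to -1.45 for YEF3, from 1.80 to 2.13 for HEF3 and from -2.53 to -1.95 for ANB1. CAM1 ranged from -0.40 to 0.075 and turned its sign without lysate 1 (0.075). The median of the members was -2.41 with library sizes alone, which also moved the median of all genes from -0.01 to -0.19. It was -2.15 with at least 10 CPM in 2 libraries, where ANB1 was not tested, and from -2.29 to -2.15 with a library left out. With copies summed, 4 of 5 sums or genes were lower and 0 higher, since HEF3 then counts with YEF3. All 5 had log2 fold changes below 0. The differences of the log2 ratio ranged from -0.69 to -0.62 for EFT1 to EFT2, from -3.76 to -3.51 for YEF3 to HEF3, from -1.38 to -0.98 for CAM1 to TEF4 and from -0.34 to -0.02 for TEF1 to TEF2 with a library left out. Where a fraction was left with 1 library, it was assumed to vary like the other. With the replicate number as a block (replicate block), 2769 genes were lower and 2730 higher, against 2772 and 2737 without it, and 6 members were lower and 1 higher. Deviations of libraries with the same number had a correlation of -0.03 across genes, and the labels do not pair them.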
